A study of Mus musculus with 3 samples.

Results

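*Twist1*, *Pdgfra*, *Dpt*, *Mfap4* and *Cthrc1* are genes of connective tissue, and their expression was followed in ATDC5 cells, a mouse line of chondroprogenitors, after *Tet1* knockdown (KD). The 5 genes were taken by symbol from the deposited table of 1524 probe sets that the authors selected for a difference between these arrays, in which 1196 genes are named. Each gene had 1 probe set there. All cells carried a lentiviral short hairpin RNA (shRNA), transduced before differentiation was induced. They were cultured with insulin, transferrin and selenium for 15 days to induce cartilage differentiation. There were 2 *Tet1* KD arrays, one with the shRNA Tet1sh1 (hairpin 1) and one with Tet1sh2 (hairpin 2), and 1 array of cells with the non-target (NT) shRNA. The genotype of all 3 samples is labelled wild-type. Transduced cells were selected with puromycin in bulk, so a sample is a mixture of transduced cells and not a clone. The comparison header numbers arrays up to 4, so the original set may have held another array, which was not analysed here. The NT group as used here has no replicate and each hairpin has 1 array, so the spread between the KD arrays mixes hairpin, culture and technical differences. Intensity is the deposited model-based expression value of a probe set, on a linear scale and normalized across arrays, and it is compared here only within a gene, never between genes, apart from sums over lists of cell type markers.

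Mesenchymal cells are the loosely packed precursors of cartilage, bone, tendon and dermis, and they condense before cartilage forms. As they become chondrocytes they exchange a matrix rich in type I collagen for one rich in type II collagen and aggrecan. TWIST1 is a basic helix-loop-helix transcription factor of this precursor state, and PDGFRA is a receptor tyrosine kinase of mesenchymal progenitors and fibroblasts. DPT (dermatopontin) is a small matrix protein that binds decorin and promotes collagen fibril formation, MFAP4 is a glycoprotein with a fibrinogen-like domain found on microfibrils, and CTHRC1 is a secreted protein with a short collagen-like stretch that has been linked to planar cell polarity signalling. TET1, the enzyme targeted by the hairpins, oxidizes 5-methylcytosine, which in mammals lies mostly in CG dinucleotides.

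The stretch before the start of transcription was looked up for all 5 genes, because TET1 acts on cytosines in CG dinucleotides. It is shown for *Twist1*, *Pdgfra* and *Dpt*, the only 3 that matched the RefSeq promoter table of build GRCm38.p6. *Mfap4* and *Cthrc1* had no match there and were not analysed here. Each sequence is the 250 bases upstream of the start, written 5′ to 3′ with CG in capitals.
*Twist1*, chr12:33957421-33957670, plus strand: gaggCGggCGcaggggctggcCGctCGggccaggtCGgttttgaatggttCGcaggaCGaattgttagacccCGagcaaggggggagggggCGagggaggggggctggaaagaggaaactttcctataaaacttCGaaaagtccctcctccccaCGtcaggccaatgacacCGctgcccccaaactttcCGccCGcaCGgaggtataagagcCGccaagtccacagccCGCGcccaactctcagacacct
*Pdgfra*, chr5:75152001-75152250, plus strand: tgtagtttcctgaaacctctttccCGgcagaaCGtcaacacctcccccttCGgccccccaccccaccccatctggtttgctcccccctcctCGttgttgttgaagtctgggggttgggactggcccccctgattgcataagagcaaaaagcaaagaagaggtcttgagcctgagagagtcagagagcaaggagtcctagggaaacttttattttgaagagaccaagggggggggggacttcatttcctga
*Dpt*, chr1:164796413-164796662, plus strand: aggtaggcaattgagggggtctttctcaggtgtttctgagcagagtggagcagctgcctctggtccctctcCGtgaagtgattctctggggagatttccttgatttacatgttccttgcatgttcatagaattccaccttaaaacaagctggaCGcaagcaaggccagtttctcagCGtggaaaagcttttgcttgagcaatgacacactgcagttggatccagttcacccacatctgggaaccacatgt
The *Twist1* sequence held 18 CG dinucleotides, and 21.7% of the 32841 promoters in the table held as many or more in the same 250 bases. The *Pdgfra* sequence held 4 and the *Dpt* sequence 3, against a median of 6 over all promoters. The 3 sequences thus lay on both sides of that median. G and C made up 62.4% of the *Twist1*, 54.4% of the *Pdgfra* and 48.8% of the *Dpt* sequence. The E-box CANNTG, the element that basic helix-loop-helix proteins bind, reads the same on both strands and was found in 66.2% of promoters. It occurred 6 times in the *Dpt* sequence, a number that 0.274% of promoters reached or passed, 1 time in *Pdgfra* and 0 times in *Twist1*. The letters ACAAT, at the core of sites bound by SOX proteins, were searched on both strands and occurred 1 time in *Twist1* and 0 times in *Pdgfra* and *Dpt*, against at least 1 in 27.7% of promoters. None of the E-boxes in these 3 sequences contained CG or overlapped ACAAT. These counts describe the reference sequence and measure neither methylation nor binding in the cells.

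**Figure D1:**
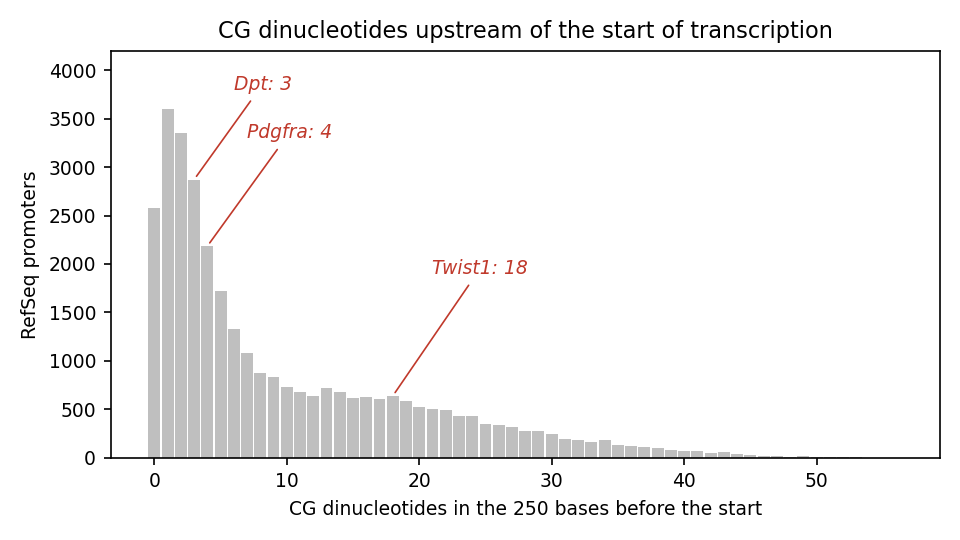
Number of CG dinucleotides in the 250 bases before the start (x axis) over the 32841 RefSeq promoters of GRCm38.p6 (y axis, number of promoters), with the 3 genes marked. *Twist1*, with 18, lies in the long right tail, and *Pdgfra* and *Dpt*, with 4 and 3, lie below the median of 6.

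On each array 35512 probe sets were measured, with median intensities of 279.6 units under hairpin 1 and 264 units under hairpin 2, against 305 units in NT. *Tet1* was lower than in NT on its 3 named probe sets, which have a name only because they were selected on this contrast. The brightest of them had 843 units under hairpin 1 and 726 units under hairpin 2, against 1626 units in NT, and the dimmest had 146 and 188 units under hairpins 1 and 2, against 400.2 units in NT. For 27311 probe sets the mean over the arrays reached 100 units, and of these 26.8% were higher under both hairpins and 48.3% were lower under both, comparisons that share the NT array, and their median log2 fold was -0.12.

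Of the 5 genes, 4 were higher under both hairpins and 1, *Cthrc1*, was lower under both. The order of the mean log2 folds was *Mfap4*, *Dpt*, *Pdgfra*, *Twist1* and *Cthrc1*. All 5 passed the intensity minimum. Because the authors selected the table on this very contrast, the folds of the 5 genes are a description and no p-value is given for them. In the fit of limma (a moderated linear model) over the 27311 probe sets, 4 of the 5 were called, against 1.75% of all probe sets. These were 3 called higher in *Tet1* KD, against 1.36%, and 1 called lower, against 0.388%. The gene not called was *Twist1*, and no named *Tet1* probe set was called. The calls were made on the contrast that chose the genes, so nothing is read from these shares, and all of them were lost when dim probe sets were kept in the fit. All 4 higher genes were at least 1.5-fold higher under both hairpins, as were 4.84% of all probe sets, and *Cthrc1* was at least 1.5-fold lower under both, as were 4.11%. For all 5, the KD array nearer to NT was farther from NT than the KD arrays were from each other on the log2 scale, which held for 35.9% of all probe sets in either direction. In cultures measured in bulk, a change in the number of cells of a type and a change in the RNA per cell cannot be told apart.

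**Figure D2:**
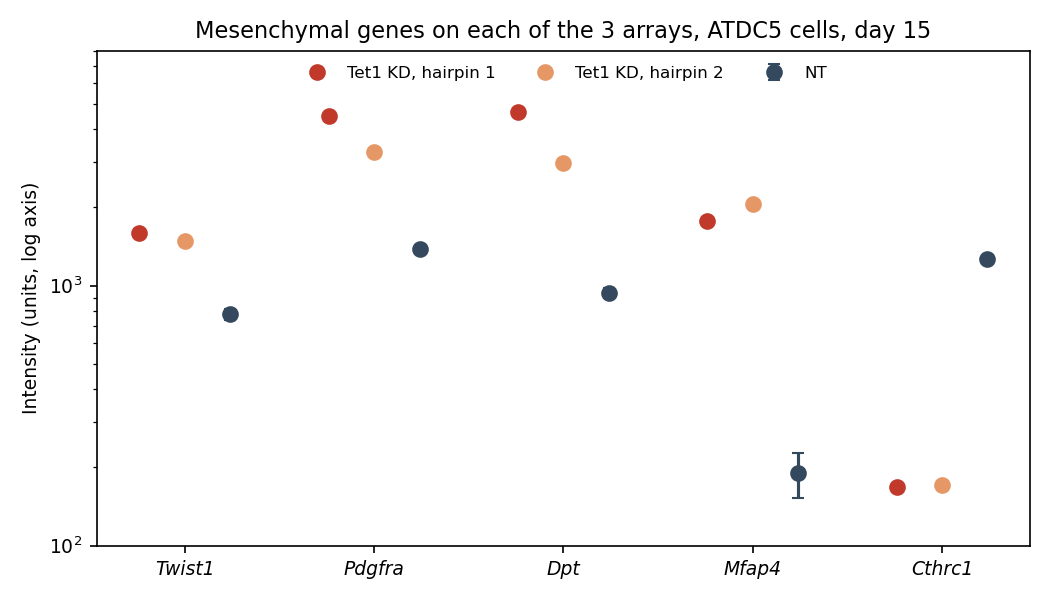
Intensity (units, log axis) of the 5 genes on the *Tet1* KD array with hairpin 1, the *Tet1* KD array with hairpin 2 and the NT array, 1 point per array. Bars on the NT points are the deposited standard errors over probes, most of them smaller than the point. Both KD points lie above the NT point for *Twist1*, *Pdgfra*, *Dpt* and *Mfap4* and below it for *Cthrc1*, and levels are not comparable between genes.

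*Twist1*, the transcription factor of the set, had 1592 units under hairpin 1 and 1484 units under hairpin 2, against 777 units in NT. Both KD arrays lay above the NT array, and they lay close to each other. Its intensity averaged 1538 ± 76.7 units in *Tet1* KD (SD, n = 2), which was 1.98 times the NT value. The log2 folds of the hairpins were 1.04 and 0.93, with a mean of 0.99 ± 0.07 (SD, n = 2). Among all tested probe sets 97.0% had a lower mean log2 fold. *Twist1* was the member with the smallest fold in either direction, and so lay nearest to the fold bound of 1.5 given in the header of the table. The header also gives a difference of 100 units, and that of *Twist1* was 761 units. The deposited standard error of its NT value, which is taken over the probes of the probe set on that array and not over cultures, was 39.8 units or 5.13% of the value.

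*Pdgfra*, the receptor, had 4479 units under hairpin 1 and 3273 units under hairpin 2, against 1381 units in NT. Both KD arrays lay above NT, and hairpin 1 was 1.37 times hairpin 2. The mean in *Tet1* KD was 3876 ± 853 units (SD, n = 2). The log2 folds of hairpins 1 and 2 were 1.70 and 1.25, and their mean of 1.47 ± 0.32 (SD, n = 2) exceeded that of 98.8% of tested probe sets.

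*Dpt*, which encodes the collagen fibril protein dermatopontin, had 4671 units under hairpin 1 and 2952 units under hairpin 2, against 940.3 units in NT. Of the 5 genes it differed most between the hairpins, with hairpin 1 at 1.58 times hairpin 2, yet the lower of the KD arrays was still 3.14 times NT. The mean in *Tet1* KD was 3812 ± 1215 units (SD, n = 2). Hairpin 1 gave a log2 fold of 2.31 and hairpin 2 one of 1.65, with a mean of 1.98 ± 0.47 (SD, n = 2). The gap between hairpins, 0.66 on the log2 scale, compares with a median gap of 0.26 and a 95th percentile of 0.96 over all tested probe sets.

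*Mfap4*, the microfibril glycoprotein, had 1771 units under hairpin 1 and 2059 units under hairpin 2, against 190 units in NT. It had the largest fold of the set, 9.34-fold under hairpin 1 and 10.9-fold under hairpin 2. The log2 folds of 3.22 and 3.44 gave a mean of 3.33 ± 0.15 (SD, n = 2), above that of 99.9% of tested probe sets. Here hairpin 2 was the higher one, at 1.16 times hairpin 1. The NT value was the least certain of the 5, with a deposited standard error over probes of 36.9 units or 19.5% of the value, against a median of 3.01% over the selected probe sets.

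*Cthrc1*, the secreted collagen-repeat protein, had 169 units under hairpin 1 and 172 units under hairpin 2, against 1267 units in NT. It was the only one of the 5 that was lower, by 7.50-fold under hairpin 1 and 7.38-fold under hairpin 2. The KD arrays were nearly equal, at 170.3 ± 2.04 units (SD, n = 2). The log2 folds were -2.91 and -2.88, with a mean of -2.90 ± 0.02 (SD, n = 2), and 0.022% of tested probe sets had a lower mean. The deposited standard error of its NT value was 6.92 units or 0.546%, the smallest share of the 5 genes. The KD values, the dim side of this fold, have no such error here. Of all tested probe sets 5.03% had hairpins still closer to each other.

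**Figure D3:**
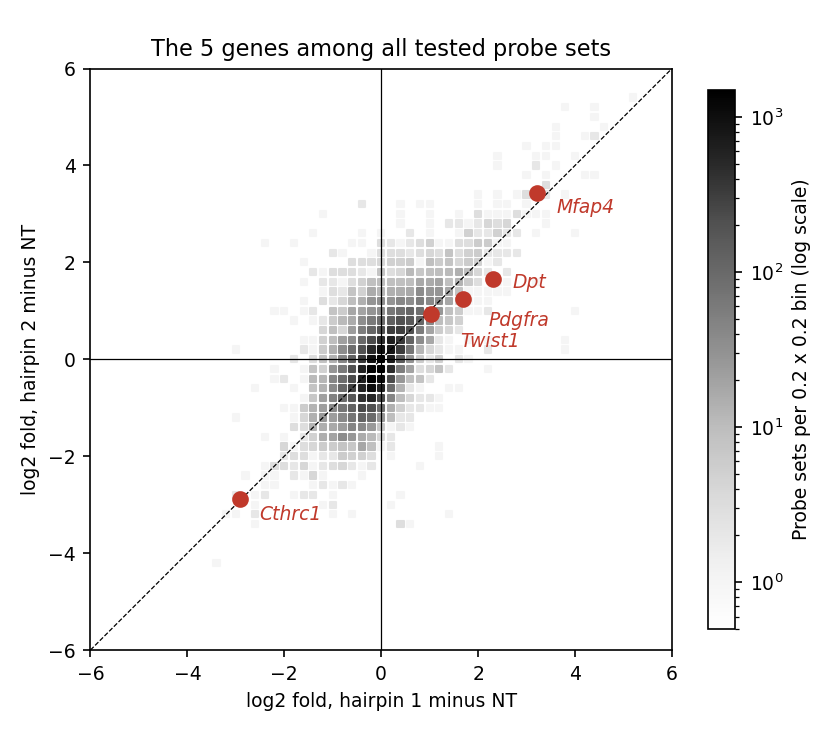
Log2 fold under hairpin 1 (x axis) against log2 fold under hairpin 2 (y axis), both relative to the same NT array, for 27311 probe sets (grey, number per bin on a log scale) and the 5 genes (red); the dashed line marks equal folds. *Mfap4* and *Cthrc1* lie near the dashed line at 3.33 and -2.90, *Dpt* and *Pdgfra* lie to its right, and *Twist1* lies nearest the main cloud.

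The order of the 5 log2 folds was the same under both hairpins, but the hairpin with the higher intensity differed from gene to gene. *Dpt*, *Pdgfra* and *Twist1* were higher under hairpin 1 than under hairpin 2, by 0.66, 0.45 and 0.10 on the log2 scale, whereas *Mfap4* and *Cthrc1* were lower under hairpin 1, with log2 differences of -0.22 and -0.02. *Tet1* itself was lower under hairpin 2 on the 2 brighter of its probe sets and lower under hairpin 1 on the dimmest. With 1 array per hairpin, none of these differences between hairpins has a test.

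To set the 5 genes beside others of their pathways, 7 lists with 120 distinct genes were drawn up from textbook knowledge. Earlier results of these data were known when the lists were made. Names came from the selected table alone, so 14 genes besides the 5 could be followed and the others were not analysed here. Of the 14, 10 were higher in *Tet1* KD and 4 were lower, each of them under both hairpins, and limma called 2 higher and 1 lower. Of the 1196 named genes 709 were higher and 487 lower, with a median log2 fold of 0.85, so the directions of named genes describe a selected set. The 14 genes were selected on the same contrast as the 5, so their limma calls too are given as a description.

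Among the transcription factors of mesenchyme, *Zeb1* and *Zeb2*, zinc finger factors known for repressing epithelial genes, and *Prrx2*, a homeobox gene of limb mesenchyme, were named beside *Twist1*. *Prrx2* had 4450.2 units under hairpin 1 and 4336 units under hairpin 2, against 2315 units in NT, a log2 fold of 0.92. The log2 folds of *Zeb2* and *Zeb1* were 0.89 and 0.79. None of the 3 was called by limma, and neither was *Twist1*. On the list of the partners and inhibitors of TWIST proteins, 1 of 12 genes was named, *Twist1* itself.

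For PDGF signalling 3 of 7 ligands and receptors were named, and they went both ways. *Pdgfrb*, the receptor gene related to *Pdgfra*, had 6742 units under hairpin 1 and 6692 units under hairpin 2, against 4198 units in NT. Its log2 fold of 0.68 was smaller than the 1.47 of *Pdgfra* and was not called. *Pdgfc*, which encodes a ligand that activates PDGFRA, had 1582 units under hairpin 1 and 1234 units under hairpin 2, against 3212 units in NT, a log2 fold of -1.20 ± 0.25 (SD, n = 2). Limma called it lower, a call that was lost after quantile normalization and after centring each array on its median. The receptors were thus higher and the ligand lower on both KD arrays.

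Of 32 mesenchymal and fibroblast genes 9 were named, and all 9 were higher, with a median log2 fold of 0.92, against 0.85 over all named genes and -0.12 over all tested probe sets. Nothing is read from the distance to all tested probe sets, since being named required selection on this contrast. The list as drawn up did not hold *Mfap4* or *Cthrc1*, so it left out the only one of the 5 genes that was lower. The 9 included *Twist1*, *Pdgfra* and *Dpt*. Of the other 6, limma called *Ly6a* (Sca-1, a surface marker of mesenchymal progenitors in the mouse), which had 8731 units under hairpin 1 and 8725 units under hairpin 2, against 4255 units in NT. *Cd34*, another surface marker of progenitors, had a log2 fold of 0.69 and was not called.

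Of 25 genes of microfibrils and elastic fibres 3 were named, and all 3 were higher. *Fbn1*, which encodes fibrillin-1, the main protein of microfibrils, had 2517 units under hairpin 1 and 3111 units under hairpin 2, against 1494 units in NT, a log2 fold of 0.91. *Ltbp1*, which tethers latent TGF-beta to microfibrils, had a log2 fold of 0.77. Neither was called, and both folds were smaller than the 3.33 of *Mfap4*. On the list of collagen fibril regulators and small proteoglycans 1 of 18 was named, *Dpt*.

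Of 15 genes with a fibrinogen-like domain, the domain of MFAP4, 4 were named. *Angptl1*, a secreted angiopoietin-like protein, had 710.4 units under hairpin 1 and 629.9 units under hairpin 2, against 104 units in NT. It was called higher, with a log2 fold of 2.68 ± 0.12 (SD, n = 2), while *Angpt1* and *Angpt2*, ligands of the endothelial receptor TIE2, had log2 folds of -0.99 and -1.32 and were not called. The 4 named genes did not share a direction.

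For planar cell polarity and noncanonical Wnt signalling 3 of 22 genes were named. Beside *Cthrc1*, the Frizzled receptor gene *Fzd6* had 542 units under hairpin 1 and 752 units under hairpin 2, against 1582 units in NT. *Prickle2*, a cytoplasmic polarity protein, had 953 units under hairpin 1 and 1551 units under hairpin 2, against 452 units in NT. Their log2 folds were -1.31 and 1.43, in opposite directions, and neither was called.

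**Figure D4:**
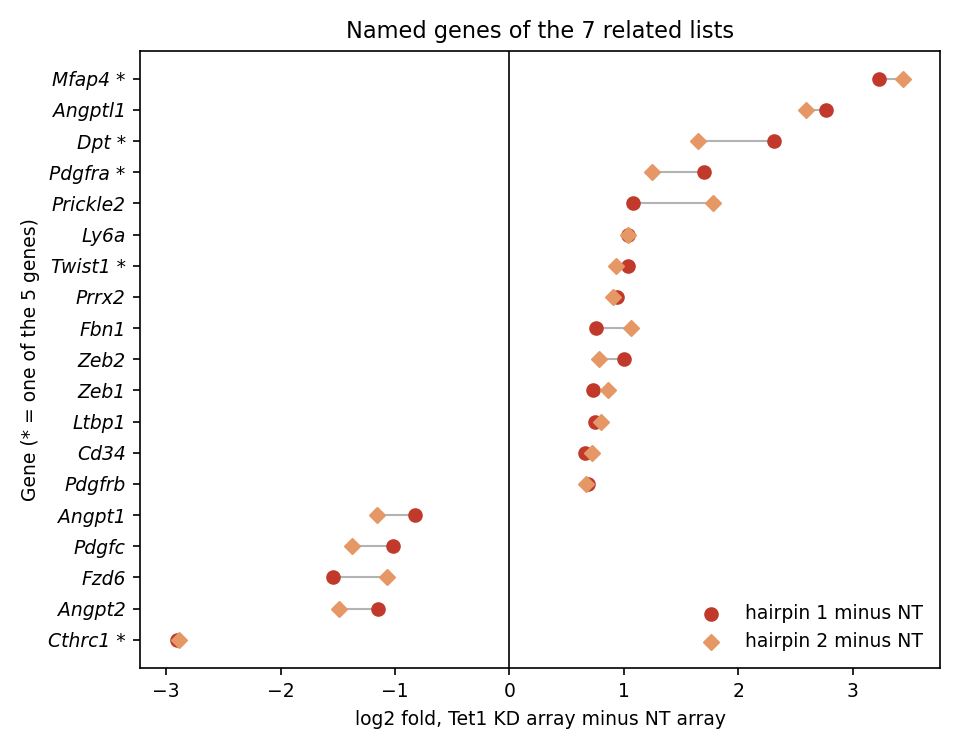
Log2 fold of each *Tet1* KD array relative to the NT array (x axis) for the 19 named genes of the 7 lists (y axis, the 5 genes starred), with a circle for hairpin 1 and a diamond for hairpin 2. The 2 marks of every gene lie on the same side of 0; *Mfap4* stands at the top and *Cthrc1* at the bottom, and the other genes of the mesenchymal list lie from 0.68 (*Pdgfrb*) to 1.04 (*Ly6a*) in their mean.

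Genes known as markers of cell types were followed on the same arrays. ATDC5 is a single cell line, so a marker does not show that cells of its type were present. Being named required selection on this contrast, and of all 1196 named genes 709 were higher and 487 lower. Markers without a name have no value here, so the counts do not describe whole lists. Of 17 chondrocyte markers 6 were named and all 6 were lower. Their summed intensity was 4494 units under hairpin 1 and 3083 units under hairpin 2, against 12184 units in NT. A sum weights each gene by the brightness of its probe set, and the dimmest of the 6, *Scrg1*, had under 100 units on both KD arrays. *Cthrc1* went in the direction of these markers and the other 4 genes went against it. The 2 named of 8 osteoblast markers, *Ibsp* and *Phex*, were higher, with a sum of 7601 units under hairpin 1 and 6840.2 units under hairpin 2, against 2893 units in NT. Of the leukocyte markers *Lyz2* was higher and *Cd68* lower (2 of 8 named), the adipocyte gene *Fabp4* was lower (1 of 7), and the epithelial genes *Perp* and *Ehf* were lower (2 of 7). No muscle or endothelial marker was named. The part of cell makeup in the values of the 5 genes was not tested.

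The named genes with folds most like each of the 5 were found by the Euclidean distance over the 2 log2 folds, among 1194 named genes with a mean of at least 100 units. With 3 arrays, 1 of them shared, such likeness is a weak description, and its distances have no error. Nearest to *Twist1* were *Ces1a* (listed as EG244595), a carboxylesterase with close relatives that may share its signal, *Aoc3*, an amine oxidase, and *Afap1l2*, an adaptor protein, at distances of 0.0067, 0.024 and 0.027. Nearest to *Pdgfra* were *Ccn1* (listed as Cyr61), a matricellular protein, *Rnf180*, a ubiquitin ligase, and *Olfml1*, at 0.114, 0.121 and 0.122. *Ccn1* had 5055 units under hairpin 1 and 3741 units under hairpin 2, against 1483 units in NT.

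The genes nearest to *Dpt* lay farther off, at 0.18 for *Bace2*, an aspartic protease, 0.212 for *Il18bp*, which binds interleukin-18, and 0.274 for *Tap2*, a peptide transporter of antigen presentation. *Mfap4* had as its nearest genes *Cxcl11*, an interferon-induced chemokine, *Zbp1*, a sensor of Z-form nucleic acids, and *Rsad2*, an antiviral enzyme, at 0.0825, 0.183 and 0.194. *Cxcl11* had 4623 units under hairpin 1 and 5106 units under hairpin 2, against 498 units in NT. For *Cthrc1* they were *Scrg1*, a gene of differentiating chondrocytes, at 0.0782, *Acan*, the core protein of aggrecan, at 0.355, and *Ehf*, an epithelial ETS factor, at 0.37. *Scrg1* had 65.7 units under hairpin 1 and 72.2 units under hairpin 2, against 511 units in NT. *Mfap4* and *Dpt*, both genes of the matrix, thus had no named matrix gene among their 3 nearest.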

How the data were processed

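Total RNA was labelled and hybridized to Affymetrix Mouse Gene 1.0 ST arrays. In dChip, the authors normalized by the invariant set method with running median smoothing, and they deposited model-based intensity values per probe set. The mm9 build is named in the submitters' processing notes. Gene names and the standard error of each NT intensity came from the deposited table of selected probe sets, whose intensities equalled the full table; its columns of folds, bounds and differences hold the authors' own comparison and were not used. Of its 1524 probe sets 1330 had a name, updated through RefSeq of GRCm38.p6: 1084 by accession, 112 by current symbol and 75 by older symbol, while 59 kept the symbol in the table. For genes with several probe sets the brightest was used.

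Intensities under 10 units were set to 10 before log2. Probe sets whose mean reached 100 units were fitted in limma 3.58.1 (R 4.3.3; lmFit, eBayes with an intensity trend), both *Tet1* KD arrays against NT, two-sided, with Benjamini-Hochberg adjustment at 0.05. This leaves 1 residual degree of freedom and assumes that NT varies like the KD arrays. The fit was tested on simulated data in which all arrays shared the variance of a probe set, so that assumption was not tested. False calls exceeded the nominal share in most simulated sets, so adjusted p-values can be too small. Arrays limit the precision. The genes described and the lists were chosen with earlier results of these data known. Named were the 5 genes, the named genes of the lists, *Tet1*, named marker genes, and for each of the 5 the 3 nearest genes by fold. Promoters and motifs were added after the values were seen.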

Additional observations from a re-analysis of the deposited data

How the results depend on the processing

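The direction of all 5 genes held under each alternative tried. Leaving out 1 *Tet1* KD array leaves the fold of the other hairpin, as given above, from 0.93 to 1.04 for *Twist1*, 1.25 to 1.70 for *Pdgfra*, 1.65 to 2.31 for *Dpt*, 3.22 to 3.44 for *Mfap4* and -2.91 to -2.88 for *Cthrc1*. Centring each array on its median, which moved the median log2 fold of the tested probe sets from -0.12 to 0.04, gave 1.15 for *Twist1*, 3.50 for *Mfap4* and -2.73 for *Cthrc1*. With log2(value + 32) *Mfap4* had 3.13 and *Cthrc1* -2.68, and after quantile normalization *Cthrc1* had -2.86. The count of limma calls depended on the processing, from 372 higher and 106 lower to 188 and 34 after quantile normalization, 87 and 21 without the intensity trend, and 0 and 0 in limma with no filter on dim probe sets, where 2229 had an unadjusted p under 0.05. With median centring 37 were lower and 316 higher. Of the 5 genes 4 were called, but 3 after quantile normalization, where *Pdgfra* was not, 2 without the trend and 0 with no filter. Of the 14 related genes 2 were called higher, *Angptl1* and *Ly6a*, but 1 (*Angptl1*) without the trend and 0 with no filter. The 1 called lower, *Pdgfc*, went to 0 under quantile normalization, median centring, no trend and no filter. Each of the 14 kept its direction in all 8 settings run on it, but not all of these could change it. The trend and the filter change the test and not the fold. Averaging over the probe sets of a gene changed nothing, because each of the 14 had 1 probe set. Leaving out a KD array leaves the fold of the other hairpin. Only quantile normalization, median centring and log2(value + 32) recomputed the folds from changed values. No paired analysis was possible because NT has 1 array. The lone NT array limits every fold.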
